A study of Mus musculus with 6 samples.

Results

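Chaperone genes of the cytosol and the mitochondria were followed in the mouse embryonic stem cell line E14 when the RNA acetyltransferase Nat10 was lowered. The set holds 39 genes, given by name, of 31641 genes in the table, and all 39 passed the filter on low counts, as did 18019 genes in all. Libraries made from total RNA were sequenced, with 3 knockdown libraries (KD, genotype Nat10 KD, with Dox) and 3 control libraries (CON, genotype Nat10 WT, without Dox), all of the same line. Dox is the usual short name of doxycycline. Since all KD libraries and no CON library received it, the drug and the knockdown cannot be told apart here. Nothing in the labels says that the replicates were separate cultures, or how the knockdown was built and how many clones it came from, so the p-values cover only library-to-library spread, which may be technical. In bulk RNA, fewer cells of a type and less RNA per cell cannot be told apart.

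Molecular chaperones help other proteins to fold. In the cytosol, J-domain proteins load unfolded clients onto HSP70, nucleotide exchange factors of the HSP110 and BAG families release them, and HSP90 with its partners completes the folding of kinases and hormone receptors. The CCT ring folds actin and tubulin, which prefoldin brings to it. In the mitochondrial matrix, an HSP70 pulls in and folds imported proteins, and the chaperonin of HSP60 and HSP10 folds many of them further. Under heat or other protein damage, the transcription factor HSF1 binds heat shock elements, repeats of the letters GAA in alternating orientation, and raises many of these genes.

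Short promoter stretches show where such elements lie in genes whose levels are given below. Of the 39 genes, 33 had a window from 250 bases before to 50 bases after a start site in RefSeq (GRCm38.p6). The windows were searched on both strands for GAANNTTC or TTCNNGAA, and for the longer element of 3 such units in a row, each spaced by NN, which contains the shorter one. The shorter letters were found in 17 of the 33 members (51.5%) and in 17% of all 27025 genes with windows. The longer were found in 5 members (15.2%), namely Hspd1, Hspe1, Hsph1, Chordc1 and Dnajb6, and in 0.662% of all genes. The stretches are written 5′ to 3′ along the strand of the gene, with the matched letters in capitals. They are shown to compare the divergent Hspe1 and Hspd1 pair, and the inducible HSP70 copies. They also compare Hspb1, which fell 1.94-fold, with Dnajb6, which fell 1.16-fold.
Hspe1, chr1:55088054-55088083, forward strand: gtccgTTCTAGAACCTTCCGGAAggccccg
Hspa1a, chr17:34972242-34972271, reverse strand: cgaaactgctgGAAGATTCctggccccaag
Hspa1b, chr17:34959324-34959353, reverse strand: cgaaactgctgGAAGATTCctggccccaag
Hspb1, chr5:135887801-135887830, forward strand: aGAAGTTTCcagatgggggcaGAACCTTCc
Dnajb6, chr5:29735844-29735873, forward strand: agctccgaGAATCTTCCGGAAcgctagacc
The Hspe1 match runs from base -89 to base -72 before the Hspe1 start site, and the same bases lie in the window of Hspd1, which is transcribed the other way. In GENCODE M21 this stretch is also inside an exon of an Hspd1 transcript, and that of Dnajb6 inside exons of Dnajb6 and of the gene model Gm5129. The Hspa1a and Hspa1b stretches are identical, and 247 of the 250 bases before their start sites are the same.

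The KD libraries carried the knockdown. Nat10 had 26.2, 27.2 and 28.7 CPM in the 3 KD libraries, against 146, 151 and 150 CPM in the 3 CON libraries, in order of replicate number as in all lists below, a 5.44-fold lower level (edgeR adjusted p = 4.21e-14). CPM are counts relative to library size, scaled here by edgeR's TMM method, which assumes that most genes do not change. Libraries held 33770755 to 39524273 counts. KD-3 stood apart from the other KD libraries, with counts that differed from theirs by 10.9 to 14.6 times the variance of counting alone, where other replicate pairs differed by 2.69 to 5.07 times. Between 70.0 and 71.7% of counts from 1 to 20 were even numbers in every library, so both mates of a read pair may have been counted. A raw count may then stand for less than 1 fragment, and the variance ratios above would be too high. KD-3 was the highest KD library for 28 of the 39 members and the lowest for 9. All 10 stem cell markers examined, among them Pou5f1 and Sox2, were detected in every library, with a summed level of 2357 to 2474 CPM in KD and 6935 to 6977 CPM in CON. All 10 were lower in KD. The 5 fibroblast markers with a row summed to 24.8 to 28.5 CPM in KD and 13.4 to 16.6 CPM in CON, the 6 neuronal ones to 63.1 to 69.4 CPM in KD and 50.4 to 51.7 CPM in CON, and the 5 endoderm ones to 10.9 to 12.5 CPM in KD and 11.7 to 12.1 CPM in CON. Of the 3 fibroblast markers tested 2 rose and 1 fell, of the 6 neuronal ones 4 rose and 1 fell, and of the 5 endoderm ones 1 rose. The fibroblast marker Col3a1 had 0, 0 and 2 counts in KD and 3, 2 and 2 counts in CON. Per length, in FPKM scaled by the TMM factors, the sums differed the other way, at 10.6 to 11.2 in KD and 20.5 to 21.6 in CON for the neuronal markers, of which Tubb3 fell 6.59-fold, and at 3.85 ± 0.0816 in KD and 4.16 ± 0.432 in CON for the fibroblast ones, whose groups overlapped (SD, n = 3 libraries each). The part of these cells in the results was not tested.

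Chaperone genes were mostly lower after the knockdown. Of the 39 members, 24 were lower in KD at an edgeR adjusted p under 0.05, 7 were higher and 8 did not pass. In either direction 79.5% were called, against 63% of all genes tested. The lower members were 61.5% of the list, against 30.8% of all genes tested, and the higher ones 17.9%, against 32.2%. Of the 5003 genes with at least 50 CPM, 79.1% were called, 51.4% lower and 27.7% higher, while of the 33 members at that level 24 were lower and 3 higher. The median log2 fold change, KD over CON, was -0.22 for the members and 0.02 for all genes tested, and above 50 CPM it was -0.31 for members and -0.14 for all genes.

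Most of these shifts were small. Of the 39 members, 7 fell and 2 rose by at least 1.5-fold, where 15% of all genes tested fell and 17.9% rose by as much. The share of members that fell this far was thus near that of all genes, and the share that rose was lower. Those that fell so far were Hspa9, Hspb1, Cct4, Hsp90aa1, Cct6a, Hspa14 and Hspe1, and those that rose were Hspa2 and Hspa4l. With libraries scaled by size only, which moved the median of all genes to 0.25, 15 members were lower and 13 higher, and of all genes 3535 were lower and 8280 higher. Without CON-2, 4 members were higher rather than 7. Groups did not overlap for 31 members, and likewise for 67.1% of all genes tested. In the authors' deposited table, Hspa9 and Hspa2 are the only 2 of the 39 members marked as changed. Of all 31641 genes, 9.18% are marked. The log2 fold changes of these 2 members there, CON over KD, are 1.34 and -1.22. Cct4 and Hspa4l, at 0.87 and -0.90, are unmarked, although the authors' test gave them adjusted p-values of 5.19e-69 and 1.12e-15. The mark thus needs more than an adjusted p under 0.05, and it is not the same measure as the calls above.

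**Figure D1:**
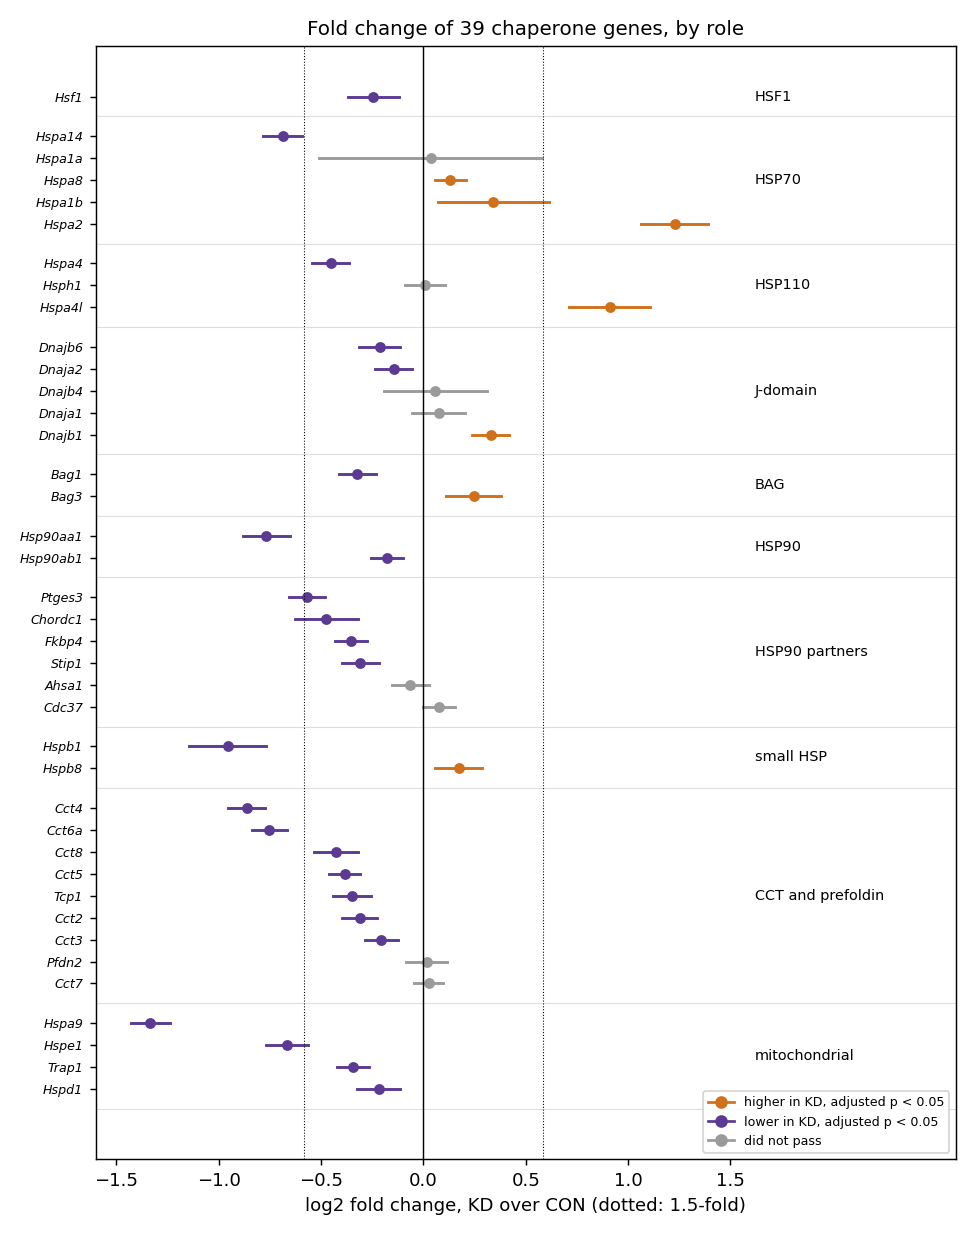
Log2 fold change, KD over CON, of the 39 chaperone genes grouped by role, with approximate 95% intervals from the edgeR standard error (3 libraries per group). Points left of 0 are lower in KD. All 4 mitochondrial genes and 7 of the 8 CCT subunits lie to the left with intervals that leave out 0, and Hspa2 and Hspa4l lie farthest to the right.

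**Figure D2:**
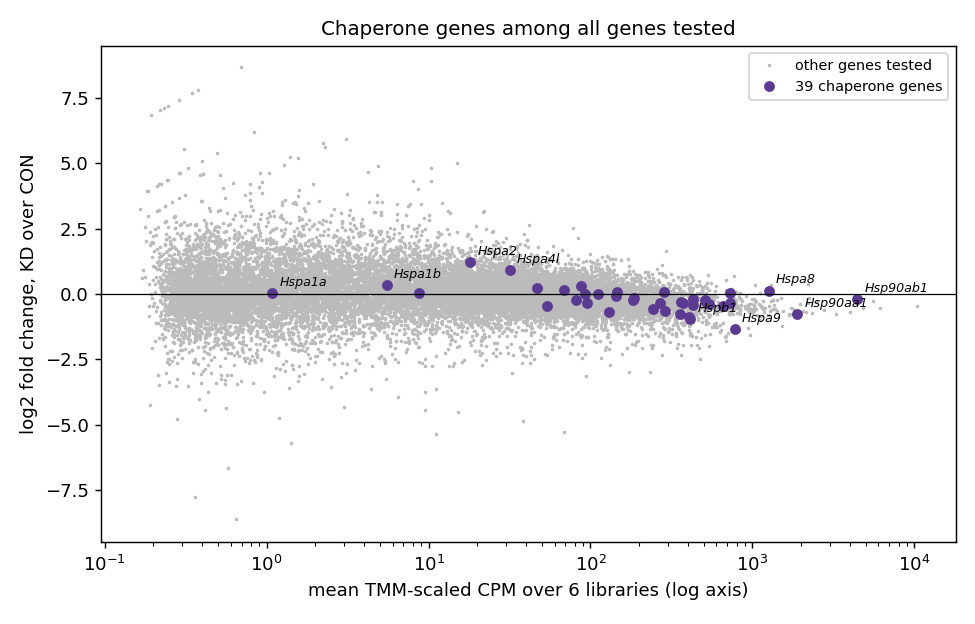
Log2 fold change, KD over CON, against mean TMM-scaled CPM over the 6 libraries (log axis), with the 39 members in purple over the other genes tested in grey. Most members lie at the abundant end of the plot, and Hspa9 is the lowest of them at -1.33.

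All 4 mitochondrial chaperone genes fell, and Hspa9 had the largest fall of the 39 members. Hspa9 encodes mortalin, the HSP70 of the mitochondrial matrix. It had 419, 431 and 477 CPM in KD, against 1136, 1110 and 1098 CPM in CON. The groups were far apart. The fall was 2.52-fold (log2 fold change -1.33 with SE 0.0476, edgeR adjusted p = 3.84e-12), and by mean CPM the gene ranked 230 in KD and 73 in CON among 31641 genes.

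Its matrix partner, the HSP60 and HSP10 chaperonin, moved unevenly. Hspe1 (GRCm38, chr1:55088132-55091307), which encodes HSP10, the lid of the chamber, had 213, 215 and 243 CPM in KD, against 366, 344 and 355 CPM in CON, and fell 1.59-fold (edgeR adjusted p = 2.34e-08). Hspd1, which encodes HSP60, the chamber itself, had 448, 454 and 517 CPM in KD, against 576, 527 and 547 CPM in CON. It fell 1.16-fold (edgeR adjusted p = 0.00244), although under scaling by size alone its log2 fold change was 0.01 and did not pass. KD-3 was nearest to the CON libraries for each gene.

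The ratio of the pair does not depend on how libraries are scaled. Hspe1 counts were 47.6, 47.5 and 46.9% of Hspd1 counts in KD, against 63.6, 65.2 and 64.8% in CON. The groups were far apart and the spread within each was small. Per length, by the authors' FPKM (fragments per gene length and library size), Hspe1 was at 84.1 to 85.4% of Hspd1 in KD and at 114 to 117% in CON. The difference in log2 ratio, KD minus CON, was -0.45 (exact permutation p = 0.1, the smallest that 3 against 3 allows, adjusted p = 0.133 over 4 ratios). The 2 genes share the promoter stretch shown above. They also share 112 exonic bases on opposite strands, and their named pseudogenes held at most 64 counts in any library.

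Trap1, the HSP90 of mitochondria, had 236, 232 and 239 CPM in KD, against 302, 295 and 299 CPM in CON, a 1.27-fold fall (edgeR adjusted p = 1.95e-06). Summed, the 4 mitochondrial members reached 1374 ± 87.1 CPM in KD and 2318 ± 54.8 CPM in CON (SD, n = 3 libraries each).

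Other proteins that care for mitochondrial proteins did not share a direction. Of 18 further genes for import motors, J-domain partners and proteases of the mitochondria, 4 rose, 3 fell and 11 did not pass, and none changed by 1.5-fold. Their summed level was 1464 ± 7.52 CPM in KD and 1464 ± 18.4 CPM in CON (SD, n = 3 libraries each). Spg7 and Afg3l2, which encode the subunits of a protease of the inner membrane, moved apart, with log2 fold changes of 0.53 and -0.35. Dnaja3, a J-domain partner of mortalin, rose by 0.24, Clpx, the unfolding subunit of the matrix protease ClpXP, fell by 0.45, and Dnajc11, a mitochondrial J-domain protein, fell by 0.50 on the log2 scale.

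**Figure D3:**
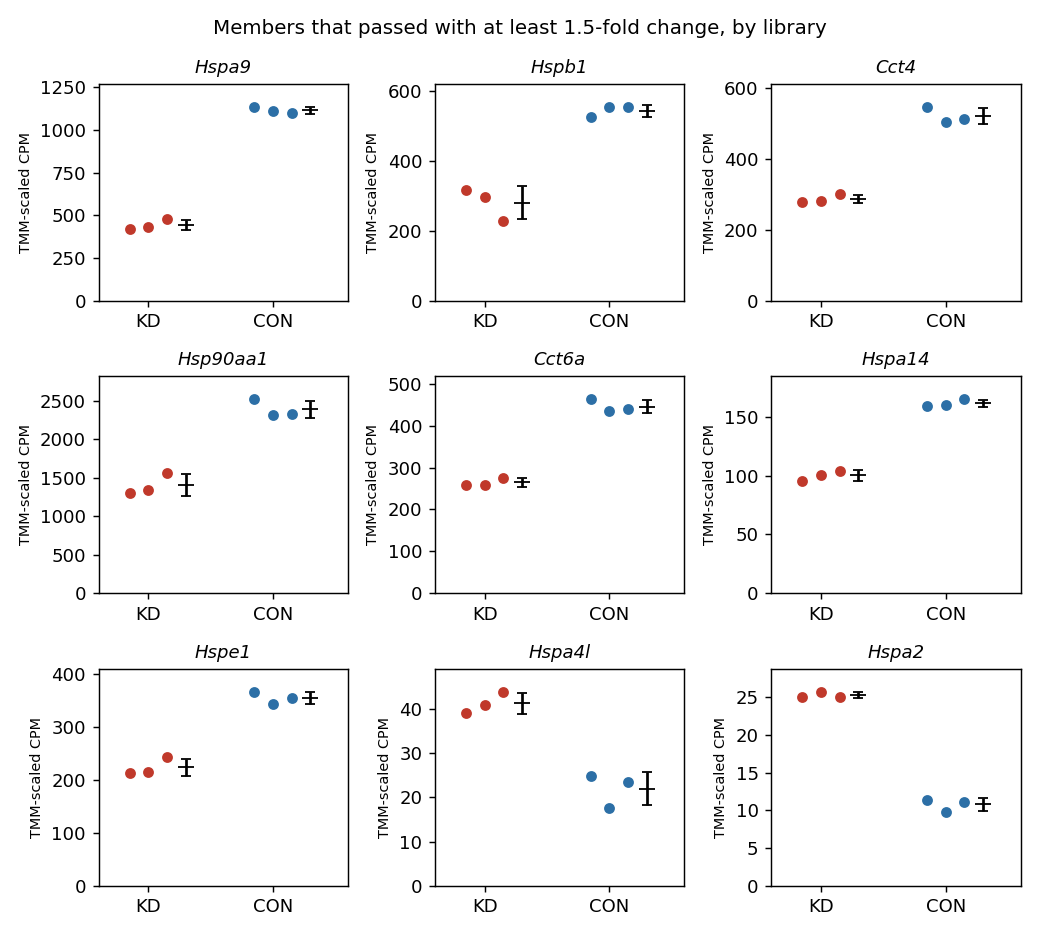
TMM-scaled CPM of the 9 members that passed with at least 1.5-fold change, in each KD library (left, red) and CON library (right, blue), with mean and SD in black (n = 3 each). The groups do not overlap in any panel, and within KD the Hspb1 level of KD-3, 227 CPM, lies below the 316 and 298 CPM of the other 2 libraries.

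In the cytosolic HSP70 family, 3 genes rose, 1 fell and 1 did not pass. Hspa8 encodes HSC70, the constitutive HSP70 of the cytosol. It had 1275, 1291 and 1384 CPM in KD, against 1203, 1193 and 1206 CPM in CON. Its 1.1-fold rise passed the test (edgeR adjusted p = 0.00861), but not without CON-2 (edgeR adjusted p = 0.0512).

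Hspa2 (GRCm38, chr12:76404176-76406938), an HSP70 best known from male germ cells, had 25.1, 25.7 and 25.1 CPM in KD, against 11.4, 9.85 and 11.2 CPM in CON. It rose 2.34-fold (log2 fold change 1.23 with SE 0.083, edgeR adjusted p = 4.83e-09), the largest rise among the members. Hspa14 (chr2:3488850-3512814), an HSP70 that binds ribosomes, had 95.6, 101 and 104 CPM in KD, against 159, 160 and 165 CPM in CON, a 1.61-fold fall (edgeR adjusted p = 6.74e-09). It shares 321 exonic bases on the same strand with the gene model Gm45902, which had 6.53 ± 0.184 CPM in KD and 9.99 ± 0.45 CPM in CON (SD, n = 3 libraries each).

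The stress-inducible HSP70 genes, which heat shock raises in most cells, were low in every library. Hspa1b had 222, 277 and 245 counts in KD, against 184, 159 and 156 counts in CON. Hspa1a had 58, 45 and 31 counts in KD, against 35, 35 and 40 counts in CON. Levels of the groups overlapped for each gene once scaled. Hspa1b rose 1.27-fold (edgeR adjusted p = 0.0426), but its call was lost under 7 of 14 alternatives, among them the test of DESeq2 (adjusted p = 0.118). Hspa1a did not pass, with a log2 fold change of 0.04 and an approximate 95% interval from -0.51 to 0.58. The transcripts share 47.1% of the 100-base stretches of Hspa1a and 49.9% of those of Hspa1b. Reads may therefore be split between the copies or lost from both, and their levels may then be too low. This was not tested, and summing would not restore lost reads. Hspa1a also shares 564 exonic bases on opposite strands with the gene model Gm20481, and the part of these bases in its counts was not tested either. Summed, both copies reached 0.524, 0.583 and 0.545% of Hspa8 counts in KD, against 0.534, 0.447 and 0.499% in CON, with overlapping groups (exact permutation p = 0.2, adjusted p = 0.2 over the 4 ratios).

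HSP110 proteins release clients from HSP70, and their genes moved in different directions. Hspa4 had 527, 546 and 591 CPM in KD, against 780, 749 and 747 CPM in CON, a 1.37-fold fall (edgeR adjusted p = 4.11e-07). Its relative Hspa4l (chr3:40744495-40796103) had 39.1, 40.9 and 43.9 CPM in KD, against 24.8, 17.7 and 23.5 CPM in CON, a 1.88-fold rise (edgeR adjusted p = 1.14e-06). Neither gene had overlapping groups. Hspa4l counts were 7.42, 7.5 and 7.43% of Hspa4 counts in KD, against 3.18, 2.36 and 3.14% in CON, a difference in log2 ratio of 1.38 (exact permutation p = 0.1, the smallest possible, adjusted p = 0.133). The heat-inducible Hsph1 had 89.4, 93.2 and 96.8 CPM in KD, against 92.9, 94.4 and 90.1 CPM in CON. Its groups overlapped, and its log2 fold change of 0.01 had an approximate 95% interval from -0.09 to 0.11. With libraries scaled by size only, Hsph1 was higher in KD at 0.24 (edgeR adjusted p = 0.000604).

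Among the J-domain proteins that feed HSP70, 1 gene rose, 2 fell and 2 did not pass. Dnajb1, the classic HSP40, had 99.6, 97.3 and 95.6 CPM in KD, against 78.4, 78.0 and 76.7 CPM in CON, and rose 1.26-fold (edgeR adjusted p = 1.93e-05). Dnajb6, which keeps aggregation-prone proteins soluble, had 159, 169 and 183 CPM in KD, against 201, 198 and 194 CPM in CON, a 1.16-fold fall (edgeR adjusted p = 0.00205). Dnaja2 had 170, 174 and 183 CPM in KD, against 200, 192 and 190 CPM in CON, a 1.11-fold fall (edgeR adjusted p = 0.0109). Scaled by size only, Dnajb6 and Dnaja2 had log2 fold changes of 0.02 and 0.08 and did not pass. Dnaja1 and Dnajb4 did not pass, with groups that overlapped. Under scaling by size alone, Dnaja1 was higher in KD at 0.31 on the log2 scale (edgeR adjusted p = 0.000886). Dnaja1 shares 608 exonic bases on opposite strands with Smu1, which had 125 ± 4.11 CPM in KD and 164 ± 3.89 CPM in CON (SD, n = 3 libraries each).

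The pair of BAG family exchange factors moved apart. Bag1, which links HSP70 to the proteasome, had 84.4, 84.9 and 84.4 CPM in KD, against 105, 107 and 105 CPM in CON, a 1.25-fold fall (edgeR adjusted p = 1.6e-05). The call was lost under scaling by size alone (log2 fold change -0.09). Bag3, which directs clients to autophagy, had 55.2, 51.6 and 45.7 CPM in KD, against 42.9, 42.5 and 43.3 CPM in CON, a 1.19-fold rise (edgeR adjusted p = 0.00571). KD-3 was the KD library nearest to CON for Bag3.

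Small heat shock proteins hold unfolding proteins in a soluble state, and the 2 members differed. Hspb1 (chr5:135887919-135889563), known as HSP27 in humans and HSP25 in mice, had 316, 298 and 227 CPM in KD, against 524, 555 and 553 CPM in CON. It fell 1.94-fold (log2 fold change -0.96 with SE 0.0962, edgeR adjusted p = 3.84e-06), with log2 fold changes from -1.06 to -0.83 when any library was left out. Hspb8, the partner of Bag3 in selective autophagy, had 72.3, 76.6 and 69.3 CPM in KD, against 64.0, 61.2 and 68.3 CPM in CON. Its 1.13-fold rise (edgeR adjusted p = 0.0178) was lost without KD-2, CON-1 or CON-2 (edgeR adjusted p from 0.0714 to 0.126).

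HSP90 genes were among the most abundant of all and fell by unequal amounts. Hsp90aa1 (chr12:110690605-110702728), the inducible form, had 1307, 1339 and 1564 CPM in KD, against 2517, 2312 and 2332 CPM in CON. It fell 1.7-fold (log2 fold change -0.77 with SE 0.0582, edgeR adjusted p = 1.76e-08). Hsp90ab1, the constitutive form, had 4009, 4049 and 4409 CPM in KD, against 4658, 4679 and 4758 CPM in CON. By CPM it was among the 6 most abundant genes of each group, while by FPKM it ranked 6 in KD and 12 in CON. The fall of Hsp90ab1 was smaller than that of Hsp90aa1. Its 1.13-fold fall passed (edgeR adjusted p = 0.00108), but its log2 fold change was 0.05 and did not pass under scaling by size alone. Hsp90aa1 counts were 32.6, 33.1 and 35.5% of Hsp90ab1 counts in KD, against 54.0, 49.4 and 49.0% in CON. This ratio is free of library scaling, and it differed by -0.59 on the log2 scale (exact permutation p = 0.1, the smallest possible, adjusted p = 0.133).

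**Figure D4:**
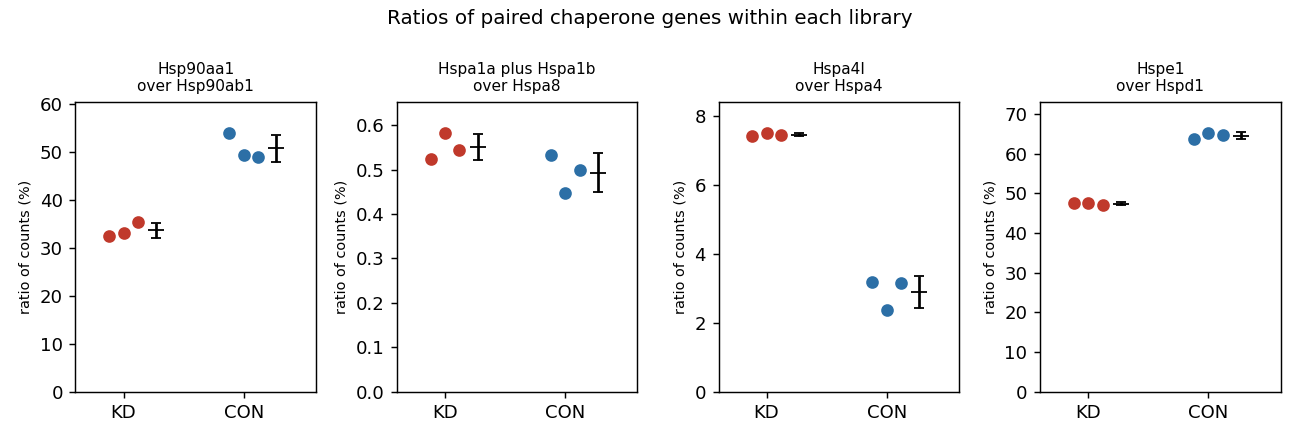
Counts of 1 gene as a percentage of the counts of its partner in each KD library (left, red) and CON library (right, blue), with mean and SD in black (n = 3 each), for Hsp90aa1 over Hsp90ab1, Hspa1a plus Hspa1b over Hspa8, Hspa4l over Hspa4 and Hspe1 over Hspd1. The groups are separate in 3 panels and overlap for Hspa1a plus Hspa1b over Hspa8.

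Of the 6 HSP90 partner genes, 4 fell and 2 did not pass. Ptges3, which encodes p23, the clamp that stabilizes HSP90 with its client, had 190, 196 and 202 CPM in KD, against 300, 288 and 284 CPM in CON, a 1.48-fold fall (edgeR adjusted p = 2.17e-08). Fkbp4, an immunophilin of steroid receptor complexes, had 655, 641 and 620 CPM in KD, against 788, 832 and 825 CPM in CON, a 1.28-fold fall (edgeR adjusted p = 1.53e-06). Groups of both genes were separate. Chordc1, an HSP90 partner, and Stip1, which encodes HOP, the bridge from HSP70 to HSP90, fell 1.39-fold and 1.24-fold, and the Stip1 call was lost under scaling by size alone (log2 fold change -0.08). Cdc37, the adaptor for kinases, had 291 ± 2.1 CPM in KD and 275 ± 4.08 CPM in CON and did not pass (edgeR adjusted p = 0.103; n = 3 libraries each). Ahsa1, which activates the HSP90 ATPase, had 141 ± 5.37 CPM in KD and 147 ± 1.78 CPM in CON and did not pass either (edgeR adjusted p = 0.236; n = 3 libraries each). Without KD-3 each of these 2 genes passed, Cdc37 at a log2 fold change of 0.08 and Ahsa1 at -0.10. Scaled by size only, each was higher in KD, at 0.31 and 0.16.

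Genes of the CCT ring, whose 8 different subunits are built into each ring in equal number, fell to very different degrees. Of the 8, 7 fell and 1 did not pass. Cct4 (chr11:22990519-23003780) had 279, 281 and 300 CPM in KD, against 548, 504 and 514 CPM in CON, a 1.82-fold fall (log2 fold change -0.86 with SE 0.046, edgeR adjusted p = 3.37e-10). Cct6a (chr5:129786998-129846371) had 258, 259 and 276 CPM in KD, against 463, 434 and 440 CPM in CON, a 1.68-fold fall (edgeR adjusted p = 9.71e-10). Cct7, the most abundant of them by CPM, had 741, 723 and 740 CPM in KD, against 725, 716 and 723 CPM in CON. Its groups overlapped, and its log2 fold change of 0.03 had an approximate 95% interval from -0.05 to 0.10, which lies apart from the intervals of the 7 others.

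The remaining subunits fell between these extremes, from 1.15-fold for Cct3 to 1.34-fold for Cct8, with Cct2, Tcp1 and Cct5 between them. With libraries scaled by size only, Cct2 lost its call and Cct3 turned to a log2 fold change of 0.02 without passing, while Cct7 was higher in KD at 0.25. Cct6a shares 452 exonic bases on opposite strands with Psph, a serine synthesis gene that had 16.9 ± 1.14 CPM in KD and 68.5 ± 0.915 CPM in CON (SD, n = 3 libraries each). The part of such shared bases in the Cct6a counts was not tested. Prefoldin subunit gene Pfdn2 did not pass, with 112 ± 6.32 CPM in KD and 110 ± 2.98 CPM in CON (SD, n = 3 libraries each). Under scaling by size alone, Pfdn2 was higher in KD at 0.25 on the log2 scale (edgeR adjusted p = 0.000665).

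Per length, the order of the subunits shifted. On the scale of FPKM adjusted by the TMM factors, Cct2 was the highest subunit and Cct3 the lowest in every library. Cct4 stood at 68.3 ± 2.81 in KD and 124 ± 5.47 in CON, and Cct7 at 108 ± 1.48 in KD and 106 ± 0.725 in CON (SD, n = 3 libraries each). On this scale Cct4 was thus above Cct7 in CON and below it in KD. The scale divides by all annotated exon bases of a gene, 4201 for Cct4 and 6778 for Cct7. By CPM, given above, Cct7 was higher than Cct4 in both groups. Order and spread of the subunits per length depend on such lengths, and which transcripts were in use was not tested. The highest level was 2.84 to 2.91 times the lowest in KD libraries and 3.04 to 3.19 times in CON libraries. The coefficient of variation among the 8 was 44.7 to 44.9% in KD and 41.1 to 42.0% in CON.

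**Figure D5:**
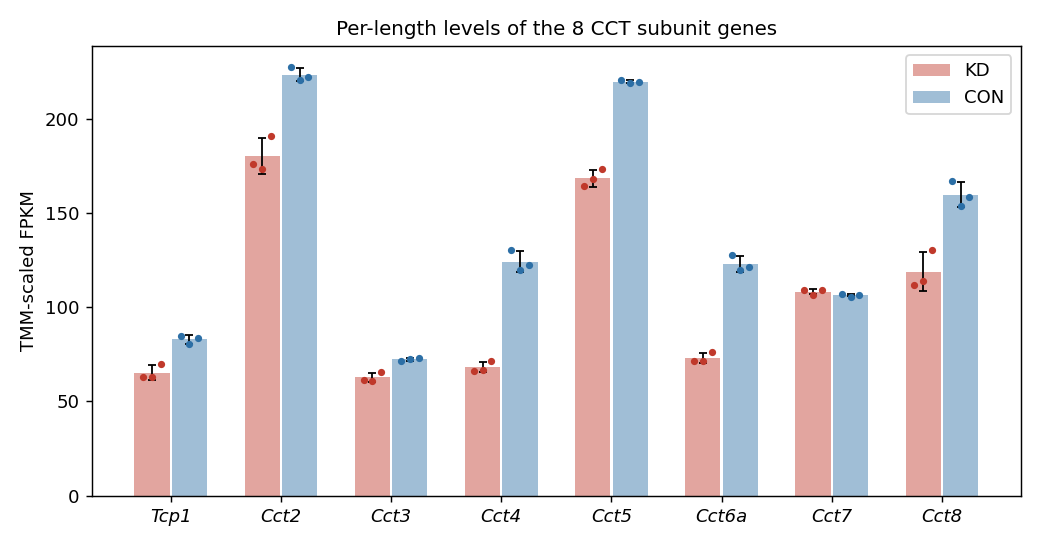
FPKM of the 8 CCT subunit genes after TMM scaling, as bars for the mean with SD (n = 3 each) and points for libraries, KD in red left of CON in blue. KD bars are lower for every subunit but Cct7, and the gap is widest in proportion for Cct4 and Cct6a.

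Hsf1, which encodes the factor that binds heat shock elements, changed little. It had 80.8, 73.4 and 69.5 CPM in KD, against 83.1, 93.3 and 88.4 CPM in CON, a 1.18-fold fall (edgeR adjusted p = 0.00322). The call was lost under scaling by size alone (log2 fold change -0.01). Of its relatives, Hsf4 fell by 1.33 on the log2 scale and Hsf5 rose by 1.05, both at low levels of under 7 CPM. Hsf2 fell by 0.31 on that scale, a call that was lost under scaling by size alone (log2 fold change -0.08). Hsbp1, which binds HSF1 and limits it, rose 1.64-fold to 118 ± 1.64 CPM in KD, against 71.6 ± 1.58 CPM in CON (SD, n = 3 libraries each).

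Members with and without the letters of a heat shock element were counted separately, as a description. Of the 17 with the shorter letters, 9 fell, 3 rose and 5 did not pass. Their median log2 fold change was -0.21, with a range from -0.96 for Hspb1 to 0.34 for Hspa1b. Of the 16 with a window and no match, 10 fell, 3 rose and 3 did not pass. Their median was -0.26, with a range from -0.69 for Hspa14 to 1.23 for Hspa2. Members without a window were in neither group. Among them were Hspa9, which had the largest fall of all members, Cct4 and Hsp90aa1, so the 2 medians leave out some of the largest falls. The 5 with the longer letters had log2 fold changes from -0.67 for Hspe1 to 0.01 for Hsph1. The letters TGATGNAA, a part of the elements bound by ATF4, the factor of the amino acid stress response, were found in 1 member window, that of Hspa14, and in 4.51% of all genes with windows.

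Across the wider chaperone network, falls and rises were closer in number. Of 107 further genes, 104 were tested, of which 40 were lower in KD, 36 higher and 28 did not pass; their median log2 fold change was -0.05. That is 38.5% and 34.6% of those tested, against 30.8% and 32.2% of all genes. With libraries scaled by size only, 23 were lower and 52 higher. At 1.5-fold or more, 14 of the 104 fell and 14 rose, where 15% of all genes tested fell and 17.9% rose by as much.

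Further J-domain genes split almost evenly, with 13 of 26 higher, 11 lower and 2 not passing. Dnajc21, which acts in the maturation of the large ribosomal subunit, fell 2.3-fold to 44.2 ± 3.37 CPM in KD, against 101 ± 4.81 CPM in CON (SD, n = 3 libraries each). Dnajb14, of the endoplasmic reticulum membrane, and Dnajc7, a partner of HSP70 and HSP90, fell by 1.14 and 0.65 on the log2 scale. Dnajc14, Dnajc1, Dnajc16 and Dnajc9, the 4 rises with the smallest p-values, had log2 fold changes from 0.61 to 0.74. Larger rises were seen at lower levels, of 1.33 for Dnajc12, 1.14 for Dnaja4 and 1.03 for Dnajc28. Dnajc14 shares 1114 exonic bases on opposite strands with Ormdl2.

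Of 31 further partners of HSP70 and HSP90, 9 rose, 14 fell and 8 did not pass. Bag2, which inhibits the ubiquitin ligase CHIP, rose 2.2-fold to 28.0 ± 0.468 CPM in KD, against 12.7 ± 0.819 CPM in CON (SD, n = 3 libraries each). Hspa12b, at a low level, had the largest rise of all further chaperone genes. It rose 2.85-fold to 4.77 ± 0.61 CPM in KD, against 1.67 ± 0.512 CPM in CON (SD, n = 3 libraries each). Fnip1, an HSP90 partner that binds folliculin, fell 2.33-fold to 25.4 ± 2.21 CPM in KD, against 59.3 ± 3.06 CPM in CON (SD, n = 3 libraries each). Fkbp5, an immunophilin related to Fkbp4, and Tomm70a, the receptor through which HSP70 and HSP90 hand proteins to mitochondria, fell by 0.69 and 0.56 on the log2 scale. Of 16 genes for prefoldin subunits, tubulin cofactors, CCT partners such as Pdcl, and the CCT subunit Cct6b, 4 rose, 6 fell and 6 did not pass. Of prefoldin genes, Pfdn6 fell by 0.55 and Pfdn5 rose by 0.33 on the log2 scale. Uxt, a prefoldin-like subunit, fell by 0.71, and Tbce, a tubulin cofactor, by 0.70 on that scale.

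Among 13 tested small heat shock proteins, heat shock factors and related genes, 6 rose, 6 fell and 1 did not pass. Hspb6, known as HSP20, had the largest fall of all further chaperone genes, 4.34-fold to 4.95 ± 0.515 CPM in KD, against 21.5 ± 2.06 CPM in CON (SD, n = 3 libraries each; edgeR adjusted p = 2.29e-10). Serpinh1, the collagen chaperone HSP47 of the endoplasmic reticulum, rose 1.44-fold to 506 ± 36.1 CPM in KD, against 352 ± 6.71 CPM in CON (SD, n = 3 libraries each). Ubb, a ubiquitin gene, fell by 0.17 on the log2 scale, which turned to a log2 fold change of 0.06 under scaling by size alone.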

How the data were processed

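The authors deposited a table of raw counts and FPKM per gene for 6 libraries. Per the submitters' processing notes, FastQC 0.11.9, STAR 2.5.3a, featureCounts and the build mm10 were used; the sources used here give neither the strand setting nor the FPKM steps. The deposited FPKM of the 15896 genes checked, those with at least 10 counts in every library, matched their counts with 1 length per gene within 1%. The authors' deposited table of log2 fold changes and adjusted p-values (CON over KD) was used only where named.

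Counts were tested with edgeR 4.0.16 in R 4.3.3 (filterByExpr, TMM, robust quasi-likelihood F-test, group only), with Benjamini-Hochberg adjustment over 18019 genes and a threshold of 0.05. Ratios were compared by exact two-sided permutation tests. Replicate numbers were not used to pair the libraries, since nothing in the labels says that they mark a shared culture or day. Alternatives were DESeq2 1.42.0, other scalings and filters, a 1.5-fold rule, a replicate block and leaving out libraries. Any member could be named; values per library are for the most abundant and most changed genes of each role, and of further genes up to 4 per list are named, with some others added after their values were seen. Members and lists were chosen with earlier results of these data known. Libraries held 33770755 to 39524273 counts. Gene positions are from GENCODE M21 and promoters from RefSeq (GRCm38.p6).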

Additional observations from a re-analysis of the deposited data

How the results depend on the processing

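Of the member calls, 15 of the 24 lower and 4 of the 7 higher (Hspa2, Hspa4l, Dnajb1 and Bag3) held under every alternative scaling, filter, tool, block and left-out library, apart from the 1.5-fold rule given below. Scaling by library size only gave 15 lower and 13 higher members, and 23 lower further genes; it turned the log2 fold changes of Dnaja2 to 0.084, Dnajb6 to 0.016, Hsp90ab1 to 0.052, Ahsa1 to 0.16, Cct3 to 0.024, Hspd1 to 0.011 and Ubb to 0.056. A minimum change of 1.5-fold left 7 lower and 2 higher members, and 14 lower and 14 higher further genes. Leaving out 1 library gave 24 to 25 lower and 4 to 7 higher members, with 4 higher without CON-2, and 35 to 42 lower and 33 to 37 higher further genes. Hsph1 was at -0.0037 with DESeq2 size factors and at -0.00095 with the DESeq2 test. Log2 fold changes of members that did not pass crossed 0 when a library was left out, from -0.18 to 0.18 for Hspa1a, -0.024 to 0.032 for Hsph1, -0.014 to 0.13 for Dnaja1, -0.042 to 0.16 for Dnajb4 and -0.035 to 0.042 for Pfdn2. The causes were not tested. Deviations from the group mean correlated at -0.061, 0.015 and -0.039 between same-numbered libraries, which cannot show whether these shared a culture or day. With the replicate block, 24 members were lower and 6 higher, Hspa1b lost its call (adjusted p = 0.066) and 39 further genes were lower and 35 higher; in 3 against 3 libraries a block cannot move the 4 ratio differences (-0.59 for Hsp90aa1 over Hsp90ab1). Halved counts, run because both mates of a pair may have been counted, and other count filters changed no member's call. Few counts limit Hspa1a.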
